A study of Mus musculus with 2 samples.

Results

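The genes described here encode the cell-cell junctions of endothelium. They are the 10 genes Cdh5, Esam, Cldn5, Ocln, F11r, Jam2, Jam3, Tjp1, Gja4 and Gja5, taken as every row of the count matrices that carries any of these symbols, so 10 of 31053 genes. All 10 were present in both matrices, and 9 of them were measured, meaning that they reached 20 CPM (the counts-per-million scale of UMIs summed over cells) in the endothelial cells of at least 1 library. Ocln was the exception. The list was set by name and not by any measured value.

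The cells were liver endothelial cells of 2 adult mice on a C57BL/6 background, sorted as DAPI-, CD45- and CD31+. The dye DAPI marks dead cells, CD45 (Ptprc) marks blood leukocytes, and CD31 (Pecam1) marks endothelium. The reference mouse was Gimap5 sph/+, so it also carried 1 copy of the sphinx (sph) allele, and the other mouse was Gimap5 sph/sph. The Gimap5 gene codes for a small GTPase. Each mouse gave 1 droplet library made with the 10x Genomics v3 kit, which captures the 3' end of transcripts and counts each captured molecule as 1 unique molecular identifier (UMI).

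Endothelial cells hold together through 3 kinds of contact. In adherens junctions VE-cadherin (Cdh5) joins neighbouring cells and is linked to actin by catenins. In tight junctions claudins, occludin and the JAM family close the gap between cells and are tied to the cytoskeleton by ZO-1 (Tjp1), and in gap junctions connexins form channels between cells. Liver sinusoidal endothelial cells (LSECs) are fenestrated and line the hepatic capillaries, whereas continuous endothelium lines other capillaries and the larger vessels. Arterial endothelium is known for Gja5 (connexin 40) and Gja4 (connexin 37), and Cldn5 is best known from the tight endothelium of the brain.

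The sph/+ library held 13136 barcodes and 64460283 UMIs, and the sph/sph library held 16386 barcodes and 68983780 UMIs. After filtering and removal of likely doublets, 10200 sph/+ and 10747 sph/sph cells were endothelial-like, with medians of 4377 and 3910 UMIs per cell. In these endothelial-like cells the Pecam1 level was 723.9 (sph/+) and 1045 (sph/sph) CPM, and Ptprc had 3 UMIs in those of each library. Pecam1 was among the markers that named the clusters, and clusters led by macrophage markers were left out. These values therefore do not test the sort. Clusters were made without the junction genes and were named from other markers. The libraries fell almost wholly into different clusters, and in 25 of 28 clusters 1 library supplied over 95% of the cells. In sph/+, 9647 endothelial-like cells (94.58%) fell in clusters named LSEC-like, and no cluster of sph/sph cells met that rule, which asks for 9 of 12 LSEC markers and a summed level above that of the continuous vascular markers. The unnamed sph/sph cluster of 798 cells had 10 of the 12 detected, but at 3050.8 CPM against 7844.5 CPM for the continuous vascular markers. In sph/sph, 7586 cells (70.59%) were continuous vascular-like, 1156 were lymphatic-like, 498 were large-vessel-like (venous markers detected), 707 were cycling and 800 stayed unnamed. The sph/+ library held 4, 8, 42, 98 and 401 cells of these classes in the same order. The large-vessel-like sph/sph cells came from 2 unlike clusters. The cluster led by Vwf and Fbln5 (271 cells) also had 7 arterial markers detected, at a summed 2631.1 CPM. The cluster led by Inhba and Rspo3 (227 cells) had 1 arterial marker detected (263.6 CPM summed over the arterial list) and 6 central vein markers. A cluster made mostly of 1 library may be that library rather than a cell type, so the clusters are called below by their 2 leading genes. The libraries shared 30 barcode sequences, 19 of them among the kept cells, and these were treated as different cells.

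Since each genotype was 1 mouse, the genotypes were not tested against each other and no p-value is given. The part of the genotype and the part of the library cannot be told apart. All intervals are 95% intervals that cover counting error only. They are exact Poisson intervals for levels, exact binomial intervals for ratios and, for shares of cells, exact Clopper-Pearson intervals. In summed counts, fewer cells of a type and less RNA of the gene per cell cannot be told apart, which is why levels by cluster follow each library value. Markers of other cell types also differed between the endothelial-like cells of the libraries. Summed stellate or fibroblast markers (8 of 8 detected in both) stood at 61.03 CPM in sph/+ and 321.0 in sph/sph, with a range over clusters of 19.29 to 81.77 and 8.168 to 1364. The 4 mesothelial markers stood at 6.734 and 180.0 CPM, with Msln at 0 in both, and the 5 erythroid markers at 0.2533 and 133.2 CPM, with Hbb-bt at 0 in sph/+. The 8 macrophage markers stood at 28.31 and 7.471 CPM and the 7 hepatocyte markers at 81.95 and 122.0 CPM, with none at 0. Their part in the results was not tested.

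Promoter sequences are shown for the 3 members whose levels differed most between clusters and that the RefSeq promoter table of build GRCm38.p6 holds. The table holds 6 of the 10 members (Cldn5, Ocln, F11r, Tjp1, Gja4 and Gja5) and not Cdh5, Esam, Jam2 or Jam3. Each sequence is the 250 bases before the RefSeq transcript start, 5' to 3' on the gene's strand, and capitals mark matches to the motifs searched. Cldn5 lies at chr16:18776597-18776846 on the plus strand, Gja4 at chr4:127314040-127314289 on the minus strand and Gja5 at chr3:97032152-97032401 on the plus strand.
Cldn5: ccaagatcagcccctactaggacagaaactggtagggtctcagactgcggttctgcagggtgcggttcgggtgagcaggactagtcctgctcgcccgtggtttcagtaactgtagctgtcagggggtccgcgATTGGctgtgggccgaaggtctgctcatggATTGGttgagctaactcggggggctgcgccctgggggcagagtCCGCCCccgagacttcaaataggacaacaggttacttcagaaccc
Gja4: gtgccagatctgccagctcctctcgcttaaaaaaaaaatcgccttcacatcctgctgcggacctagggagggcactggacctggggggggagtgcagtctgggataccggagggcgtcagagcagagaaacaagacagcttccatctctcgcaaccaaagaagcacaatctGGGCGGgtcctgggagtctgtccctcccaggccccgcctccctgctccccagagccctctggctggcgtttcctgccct
Gja5: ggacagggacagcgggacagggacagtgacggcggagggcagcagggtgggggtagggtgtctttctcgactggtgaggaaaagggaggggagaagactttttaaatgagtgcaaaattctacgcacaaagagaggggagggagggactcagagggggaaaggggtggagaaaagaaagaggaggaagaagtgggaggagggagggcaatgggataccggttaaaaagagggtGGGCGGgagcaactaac
The motifs were CCGGAA (read by ETS factors), GTAAACA (forkhead), AACAAT (SOX), TATAAA (the TATA box), CCAAT (the box of that name) and GGGCGG (the GC box), each on both strands. The capitals in Cldn5 are CCAAT boxes on the other strand that begin 118 and 88 bases before the start and a GC box that begins 45 bases before it. Gja4 has a GC box 79 bases before its start, and Gja5 a GC box 17 bases before its start. No marked match overlaps another. Of 32851 mouse promoters in the table, 33.8% hold a CCAAT box and 32.7% a GC box in the same window, and 12% hold the ETS motif, 3.17% the forkhead motif, 9.42% the SOX motif and 12.4% the TATA box. None of the last 4 motifs is spelled in these 3 windows, which says only that these letters are not there.

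Over all endothelial-like cells, 2 of the 9 measured members stood at least 1.5-fold higher in sph/sph (Jam3 and Gja5), 3 were at least 1.5-fold lower (Jam2, Gja4 and Tjp1), and 4 differed by less (Cdh5, Esam, Cldn5 and F11r). Of all 7465 measured genes, 18.3% were at least 1.5-fold higher and 21.4% at least 1.5-fold lower (39.8% either way), so the counts of members, read as 2 and 3 of 9, were not far from that background. The median log2 ratio (sph/sph over sph/+, after adding 1 CPM) was 0.02 for the 9 members and -0.07 for all measured genes. The members ran from -1.75 to 2.76, and the median is the value of Cldn5 alone. Both higher members passed 20 CPM only in sph/sph, where they are high.

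**Figure D1:**
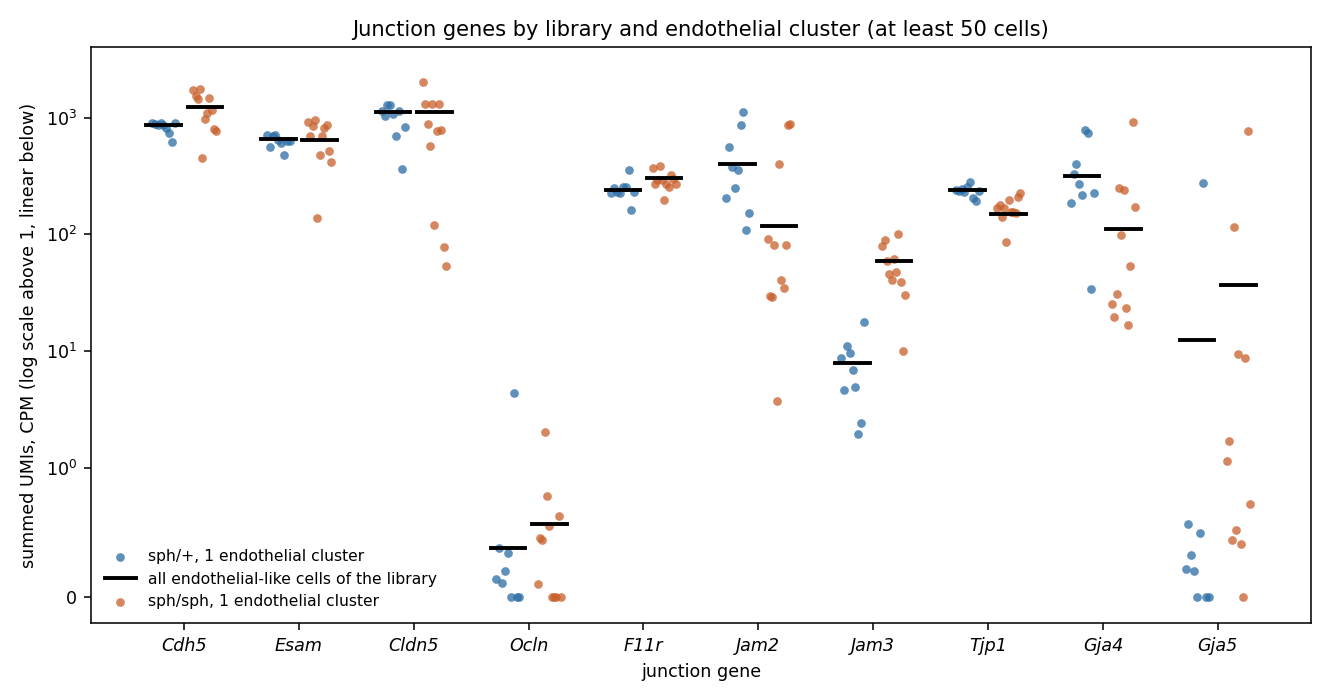
Level of each junction gene (y axis, CPM of summed UMIs, logarithmic above 1 and linear below) in each endothelial cluster with at least 50 cells of a library (points, 9 sph/+ and 11 sph/sph clusters), with the value over all endothelial-like cells as a black bar. F11r and Tjp1 spread the least between sph/sph clusters (1.959-fold and 2.588-fold), Jam3 clusters of sph/sph sit mostly above those of sph/+, and Cldn5, Jam2, Gja4 and Gja5 spread widely between clusters.

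Cdh5 encodes VE-cadherin, the adhesion protein of endothelial adherens junctions, and lies on chromosome 8 at 104101625 to 104144511 (GRCm38, plus strand). Its level over all endothelial-like cells was 870.0 CPM in sph/+ (interval 861.6 to 878.4) and 1222 CPM in sph/sph (1213 to 1232), a ratio of 1.405 (1.388 to 1.423). In sph/+ the clusters ran from 619.7 CPM in the cycling Mki67 and Cenpf cluster to 905.3 CPM in the LSEC-like Flrt1 and Gatm cluster, with a median of 872.1 CPM. In sph/sph they ran from 453.9 to 1776 CPM, with a median of 1165 CPM, and 8 of the 11 sph/sph clusters lay above every sph/+ cluster. The highest were the continuous vascular-like Igfbp3 and Cxcl12 cluster at 1776 CPM (1739 to 1814) and the Rgcc and Lpl cluster at 1720 CPM (1694 to 1746), whose intervals overlap narrowly. The lymphatic-like Fgl2 and Mmrn1 cluster was the lowest and the only sph/sph cluster below all sph/+ clusters with at least 50 cells. With each cell thinned to 2000 UMIs, so that depths are equal, a Cdh5 UMI was found in 82.4% of sph/+ and 88.0% of sph/sph cells, and without thinning in 96.0% and 96.8%. The cells with any held a mean of 2.12 Cdh5 UMIs in sph/+ and 3.16 in sph/sph at 2000 UMIs. The shares were near their upper limit, so they cannot show whether the share of cells or the amount per cell differed more. The lymphatic-like cells were deep, with a median of 9722.5 UMIs and 22.4% of all sph/sph endothelial UMIs. Without them the log2 ratio of Cdh5 moved from 0.49 to 0.73, past the threshold of 1.5-fold, as it also did with every cell weighted equally (0.68).

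Esam encodes an immunoglobulin-family adhesion protein of endothelial contacts and lies on chromosome 9 at 37528078 to 37538319 (plus strand). Its level was 654.2 CPM in sph/+ (646.9 to 661.5) and 637.4 CPM in sph/sph (630.5 to 644.3), a log2 ratio of -0.04. The near-equal library values hid a wider spread in sph/sph, where clusters ran from 138.3 to 946.6 CPM (6.843-fold, 6.464 to 7.248) against 481.6 to 710.1 CPM in sph/+ (1.474-fold, 1.381 to 1.575). Continuous vascular-like sph/sph cells stood at 852.5 CPM and large-vessel-like ones at 474.5 CPM. The lymphatic-like cluster stood at 138.3 CPM (131.6 to 145.3), inside the interval of 92.86 to 185.4 CPM found in hepatocyte-like sph/sph cells. Those 118 cells, with a median of 1778 UMIs, should lack junction genes of endothelium, and their values are given below for comparison. Their counts sat in few cells, such as 78 Cdh5 UMIs in 17.8% of them, so they are not a measure of free RNA. An Esam UMI was found in 11.02% of them without thinning (5.998 to 18.1). In the lymphatic-like cluster the share was 59.8% without thinning. Thinned to the equal depth used for Cdh5, it was 23.3% (20.9 to 25.9), above the interval of hepatocyte-like cells. The similar CPM therefore does not show that Esam in lymphatic-like cells was at background. Across the 11 sph/sph clusters with at least 100 cells, Esam and Cdh5 varied together (Pearson r = 0.93 of log2(CPM + 20), a description over clusters that share 1 library).

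Cldn5 encodes claudin 5, the main claudin of endothelial tight junctions, and lies on chromosome 16 at 18776847 to 18778262 (plus strand), directly after the promoter printed above. Its summed level was nearly the same in both libraries, at 1107 CPM in sph/+ (1098 to 1117) and 1120 CPM in sph/sph (1111 to 1129), a ratio of 1.011 (0.9994 to 1.023). The cells behind these sums differed. At 2000 UMIs per cell, a Cldn5 UMI was present in 82.6% of sph/+ cells (81.8 to 83.3), but in 57.2% of the sph/sph ones (56.2 to 58.1). Without thinning the shares were 92.8% and 67.2%. The cells that had any held a mean of 2.70 Cldn5 UMIs in sph/+ and 4.10 in sph/sph at that depth, so fewer sph/sph cells carried more each. In hepatocyte-like sph/sph cells the share was 12.71% (7.293 to 20.1).

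Between clusters Cldn5 had the contrast that the sums hid. In sph/+ it ran from 365.3 CPM in the cycling cluster to 1274 CPM, and the LSEC-like clusters led by Flrt1 and Gatm (1274 CPM) and by Wnt2 and Kit (1273 CPM) could not be told apart. In sph/sph it ran from 53.14 CPM in the Inhba and Rspo3 cluster to 2025 CPM in the Rgcc and Lpl cluster, a 38.1-fold range (30.34 to 48.55). The low end in sph/sph was formed by Inhba and Rspo3, Vwf and Fbln5 at 77.91 CPM (64.8 to 92.89), and the unnamed Sprr2b and Tubb3 cluster at 120.1 CPM (109.1 to 132.0). Hepatocyte-like cells of the same library had 163.8 CPM (118.5 to 220.6). Unthinned, a Cldn5 UMI was found in 6.17% of Inhba and Rspo3 cells, 18.5% of Vwf and Fbln5 cells and 21.9% of Sprr2b and Tubb3 cells. The next cluster up, Igfbp3 and Cxcl12, had 566.2 CPM (545.5 to 587.5). The lymphatic-like cluster, at 1305 CPM (1284 to 1326), equalled the continuous vascular-like Hspa1a and Aplnr cluster at 1305 CPM (1277 to 1332). In sph/+, the 40 cells of the Inhba and Rspo3 cluster also had little Cldn5, at 37.09 CPM from 9 UMIs (16.96 to 70.41), whereas the sph/+ cluster led by Nrg1 and Adgrg6 had 1148 CPM. The only cluster that both libraries filled with at least 25 cells was thus low in Cldn5 in both.

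Ocln encodes occludin, a tight junction protein abundant in epithelia, and lies on chromosome 13 at 100496507 to 100552718 (minus strand). It was close to undetected in the endothelial-like cells, with 18 UMIs (0.38 CPM) in sph/+ and 29 UMIs (0.5627 CPM) in sph/sph. Of the sph/+ UMIs, 9 fell in the Nrg1 and Adgrg6 cluster (4.339 CPM), and no endothelial cluster of either library exceeded that level. No ratio was read from these counts. The log2 ratio was 0.18 in endothelial-like cells and -1.10 over all kept cells, which include 175 sph/+ cells with bile duct markers.

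F11r encodes JAM-A, a tight junction protein of endothelium, epithelium and platelets, and lies on chromosome 1 at 171437535 to 171464603 (plus strand). It was the steadiest member between clusters of sph/sph, with a range of 195.4 to 382.8 CPM (1.959-fold, 1.796 to 2.139), and ran from 162.8 to 356.8 CPM in sph/+. Over all endothelial-like cells it stood at 241.1 CPM in sph/+ (236.7 to 245.5) and 304.4 CPM in sph/sph (299.6 to 309.2), a ratio of 1.263 (1.232 to 1.293). Only the Igfbp3 and Cxcl12 cluster (382.8 CPM) and the Rgcc and Lpl cluster (369.5 CPM) of sph/sph lay above every sph/+ cluster with at least 50 cells. At 2000 UMIs, 38.7% of sph/+ and 44.4% of sph/sph cells had an F11r UMI, and without thinning 63.9% and 67.1%.

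Jam2 encodes JAM-B, a JAM of endothelial contacts that binds JAM-C, and lies on chromosome 16 at 84774123 to 84825928 (plus strand). It was 3.392-fold lower in sph/sph (3.296 to 3.492), at 401.4 CPM in sph/+ (395.7 to 407.1) and 118.3 CPM in sph/sph (115.4 to 121.3). At 2000 UMIs, 48.9% of sph/+ but 14.9% of sph/sph cells had a Jam2 UMI, and without thinning 70.4% and 23.3% did. The mean count in cells that had any was 1.68 and 1.49. That mean differed between sph/sph classes, at 2.15 in large-vessel-like and 1.14 in continuous vascular-like cells, with shares of 75.2% and 10.2%. Mean and share thus fell together between these classes. A lower share of cells and a lower amount per cell were not told apart by them. In sph/+ the highest cluster was Nrg1 and Adgrg6 at 1114 CPM (1069 to 1161), then the LSEC-like Rspo3 and Wnt9b cluster, which leads with genes of central vein endothelium, at 870.5 CPM (830.3 to 912.2). The lowest was the cycling cluster at 109.7 CPM, and the LSEC-like clusters ran down to 151.9 CPM. In sph/sph 8 of 11 clusters lay below every sph/+ cluster. The other three were Inhba and Rspo3 at 884.0 CPM (835.3 to 934.8), Vwf and Fbln5 at 872.1 CPM (826.8 to 919.2), which cannot be told apart, and Sprr2b and Tubb3 at 403.3 CPM (382.8 to 424.5). These 3 clusters held 12.1% of the sph/sph endothelial-like cells and 66.8% of their Jam2 UMIs. With large-vessel-like and unnamed cells left out of both libraries, an alternative added after the data were seen, the log2 ratio of Jam2 was -3.01 instead of -1.75. Among continuous vascular-like clusters, those led by Hspa1a and Aplnr (29.64 CPM) and by AA467197 and Apln (29.27 CPM) lay inside the interval of hepatocyte-like cells (6.184 to 44.45 CPM), and Rgcc and Lpl (91.61 CPM) lay above it. Lymphatic-like cells had 3.727 CPM, against 19.05 CPM from 5 UMIs in hepatocyte-like cells.

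The 3 sph/sph clusters with the least Cldn5, chosen after their values were seen, were those with the most Jam2. Across the 11 sph/sph clusters the log2 levels of Cldn5 and Jam2 were related with r = -0.91, and Cldn5 and Gja4 with r = -0.80. In sph/+ the Cldn5 and Jam2 relation was r = -0.52 over 7 clusters, and cells there carried both. At 2000 UMIs, 81.3% of sph/+ cells with a Jam2 UMI also had a Cldn5 UMI (80.2 to 82.4), against 39.6% in sph/sph (37.1 to 42.2). Within sph/sph classes the relation was not seen. In continuous vascular-like cells Cldn5 was found in 67.4% of cells with Jam2 (63.8 to 70.9) and 62.4% of those without it (61.2 to 63.6), and in large-vessel-like cells in 7.54% (5.03 to 10.8) and 6.78% (2.97 to 12.9). In sph/sph the inverse relation thus lay between classes, and cells were not compared within single clusters. Among the continuous vascular-like clusters, Rgcc and Lpl had the most Cldn5 (2025 CPM) and also the most Jam2 (91.61 CPM). Igfbp3 and Cxcl12 had the least Cldn5 (566.2 CPM) and the next most Jam2 (80.95 CPM).

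**Figure D2:**
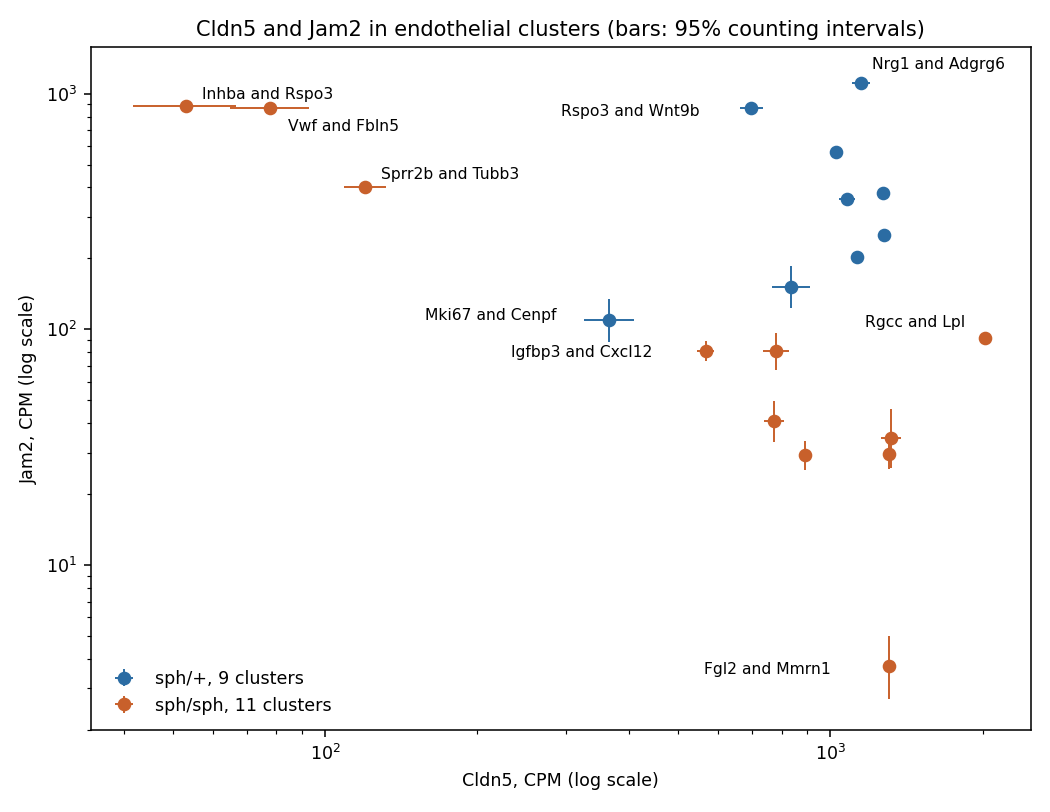
Jam2 (y axis, CPM, log scale) against Cldn5 (x axis, CPM, log scale) in each endothelial cluster with at least 50 cells of a library, with bars for 95% exact Poisson intervals. The sph/sph clusters Inhba and Rspo3, Vwf and Fbln5, and Sprr2b and Tubb3 sit at low Cldn5 and high Jam2. Their levels are 53.14 to 120.1 CPM of Cldn5 and 403.3 to 884.0 CPM of Jam2. The other sph/sph clusters lie at high Cldn5 and low Jam2, and most sph/+ clusters lie at the upper right. Lower sph/+ clusters are the cycling one, at 365.3 CPM of Cldn5 and 109.7 CPM of Jam2, and Stmn1 and Mcm5, at 835.5 and 151.9 CPM.

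Jam3 encodes JAM-C, the partner of JAM-B, and lies on chromosome 9 at 27097384 to 27155421 (minus strand). It had the largest ratio of the members, 7.511-fold higher in sph/sph (6.744 to 8.384), with 374 UMIs (7.895 CPM, 7.115 to 8.738) in sph/+ and 3056 UMIs (59.30 CPM, 57.21 to 61.44) in sph/sph. In sph/+ the clusters ran from 1.928 to 17.78 CPM, and in sph/sph from 10.05 to 100.8 CPM, with medians of 6.811 and 47.52 CPM. All sph/sph clusters but Vwf and Fbln5 (10.05 CPM, 5.746 to 16.32) lay above every sph/+ cluster, including the unnamed and lymphatic-like ones. The highest were the cluster led by Hells and Mcm5, genes of DNA replication (100.8 CPM, 85.04 to 118.6) and Hspa1a and Aplnr (90.16 CPM, 83.03 to 97.73), whose intervals overlap. At 2000 UMIs a Jam3 UMI was found in 1.60% of sph/+ and 11.8% of sph/sph cells, and without thinning in 3.57% and 21.7%. In hepatocyte-like sph/sph cells the share was 3.39% (0.9312 to 8.452) and the level 15.24 CPM (4.151 to 39.01). The unthinned sph/+ share lay inside that interval, but it came from another library and from deeper cells (median 4377 against 1778 UMIs). It therefore does not show whether Jam3 in sph/+ was at background.

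The pair of binding partners therefore differed in opposite directions between the libraries. Jam2 was the lower and Jam3 the higher in sph/sph, with log2 ratios of -1.75 and 2.76. Across sph/sph clusters their levels were related with r = -0.59.

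Tjp1 encodes ZO-1, the scaffold that ties tight junction proteins to actin, and lies on chromosome 7 at 65296165 to 65527781 (minus strand). It was 1.581-fold lower in sph/sph (1.536 to 1.628), at 238.3 CPM in sph/+ (233.9 to 242.7) and 150.7 CPM in sph/sph (147.3 to 154.1). In sph/+ it was nearly flat between clusters, from 192.9 to 282.8 CPM (1.466-fold, 1.228 to 1.758). In sph/sph the clusters ran from 86.58 CPM in the lymphatic-like cluster to 224.1 CPM in Inhba and Rspo3, and 8 of 11 lay below every sph/+ cluster. The other three were Inhba and Rspo3, Vwf and Fbln5 (209.2 CPM) and Sprr2b and Tubb3 (196.8 CPM), the clusters with the most Jam2. Tjp1 and Jam2 levels were related with r = 0.83 across the 11 sph/sph clusters. The ratio lies close to the threshold of 1.5-fold. The log2 ratio was -0.66, and it fell short of that threshold without lymphatic-like cells (-0.49), with cells weighted equally (-0.53) and with scaling by the median ratio (-0.58).

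Gja4 encodes connexin 37, a gap junction protein of arterial endothelium, and lies on chromosome 4 at 127311421 to 127314039 (minus strand), next to the promoter printed above. It was 2.887-fold lower in sph/sph (2.800 to 2.977), at 318.8 CPM in sph/+ (313.7 to 323.9) and 110.4 CPM in sph/sph (107.6 to 113.3). A Gja4 UMI was found in 40.1% of sph/+ and 11.6% of sph/sph cells at 2000 UMIs, and in 60.2% and 18.4% without thinning. In sph/+ Gja4 was spread over all LSEC-like clusters, from 185.9 CPM in Chst2 and Aass to 781.9 CPM (743.8 to 821.4) in the central vein-led Rspo3 and Wnt9b cluster. That highest value could not be told apart from 741.5 CPM (704.9 to 779.5) in Nrg1 and Adgrg6. In sph/sph it was uneven, with 909.1 CPM (862.9 to 957.2) in Vwf and Fbln5, 251.1 CPM (237.3 to 265.4) in Igfbp3 and Cxcl12 and 241.9 CPM (226.1 to 258.5) in Sprr2b and Tubb3. The other 4 continuous vascular-like clusters had 16.68 to 30.59 CPM, and hepatocyte-like cells had 34.28 CPM (15.68 to 65.08). The sph/+ cycling cluster was as low, at 33.76 CPM (22.43 to 48.79). Inhba and Rspo3 stood at 172.3 CPM (151.2 to 195.6) and the lymphatic-like cluster at 98.63 CPM (92.98 to 104.5). Of the 1850 Gja4 UMIs of continuous vascular-like cells, 1247 were in the Igfbp3 and Cxcl12 cluster.

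Gja5 encodes connexin 40, the gap junction protein that marks arterial endothelium, and spans chromosome 3 from 96904693 to 97077416 in the GENCODE annotation (plus strand), inside which RefSeq places the start printed above. It was the most concentrated member. In sph/+ it had 585 UMIs (12.35 CPM, 11.37 to 13.39), of which 97.1% came from the 401 cells of the Nrg1 and Adgrg6 cluster, at 273.8 CPM (251.8 to 297.3). No other sph/+ cluster with at least 50 cells exceeded 0.5666 CPM, and all LSEC-like cells together had 0.3169 CPM from 14 UMIs. In sph/sph it had 1887 UMIs (36.62 CPM, 34.98 to 38.31), a ratio of 2.965 (2.701 to 3.259). The Vwf and Fbln5 cluster, with 271 cells, held 64.8% of them at 767.8 CPM (725.3 to 812.1), and Igfbp3 and Cxcl12 held 30.7% at 116.6 CPM (107.3 to 126.5). The next cluster, Sprr2b and Tubb3, had 9.410 CPM (6.517 to 13.15). Hepatocyte-like cells had 3.809 CPM from 1 UMI, with an interval (0.09644 to 21.22 CPM) too wide to show whether Gja5 in that cluster was at background. Nearly all Gja5 thus came from 1 cluster in sph/+ and from 2 in sph/sph. Without large-vessel-like and unnamed cells Gja5 no longer reached 20 CPM in either library.

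Other arterial genes separated the Gja5-positive clusters. In the sph/+ cluster Nrg1 and Adgrg6, Dll4 stood at 309.5 CPM, Efnb2 at 253.1, Sox17 at 380.9, Hey1 at 42.43, Bmx at 22.18 and Sema3g at 9.642 CPM. In the sph/sph cluster Vwf and Fbln5, Sema3g stood at 228.7 CPM, Bmx at 223.7, Sox17 at 294.7, Efnb2 at 194.8, Dll4 at 151.4 and Hey1 at 20.73 CPM. In Igfbp3 and Cxcl12, Hey1 (364.7 CPM) and Efnb2 (476.6 CPM) were at their highest over all clusters, and Dll4 stood at 225.7 CPM, Sox17 at 192.3, Sema3g at 147.0 and Bmx at 6.443 CPM. Sema3g, an artery marker, was at 0 in each of the 7 LSEC-like clusters. The 3 clusters with the most Gja5 thus differed in their arterial genes, and they differed in Cldn5, at 1148, 77.91 and 566.2 CPM in the order given, and in Jam2, at 1114, 872.1 and 80.95 CPM.

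The share of cells with both connexins differed between these clusters, at 81 of 388 thinned cells in Nrg1 and Adgrg6, 116 of 258 in Vwf and Fbln5 and 66 of 1103 in Igfbp3 and Cxcl12. At 2000 UMIs, 33.5% of Nrg1 and Adgrg6 cells, 62.4% of Vwf and Fbln5 cells and 9.52% of Igfbp3 and Cxcl12 cells had a Gja5 UMI, against 0.8475% (0.02145 to 4.631) of hepatocyte-like cells. In Igfbp3 and Cxcl12, Gja4 was found in 62.9% of cells with Gja5 (52.9 to 72.1) and in 22.6% of those without it (20.1 to 25.4). Within this cluster Gja4 was thus more frequent in cells with a Gja5 UMI, and the intervals did not overlap. In Nrg1 and Adgrg6 the shares were 62.3% (53.4 to 70.7) and 66.7% (60.6 to 72.4), and in Vwf and Fbln5 72.0% (64.4 to 78.8) and 64.9% (54.6 to 74.4), so there the intervals with and without a Gja5 UMI overlapped. When each library was clustered alone, only 33 sph/sph cells met the large-vessel-like rule, and Gja4 in that class was 233.2 CPM instead of 565.3 CPM, while Gja5 was 390.5 CPM instead of 409.8 CPM.

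**Figure D3:**
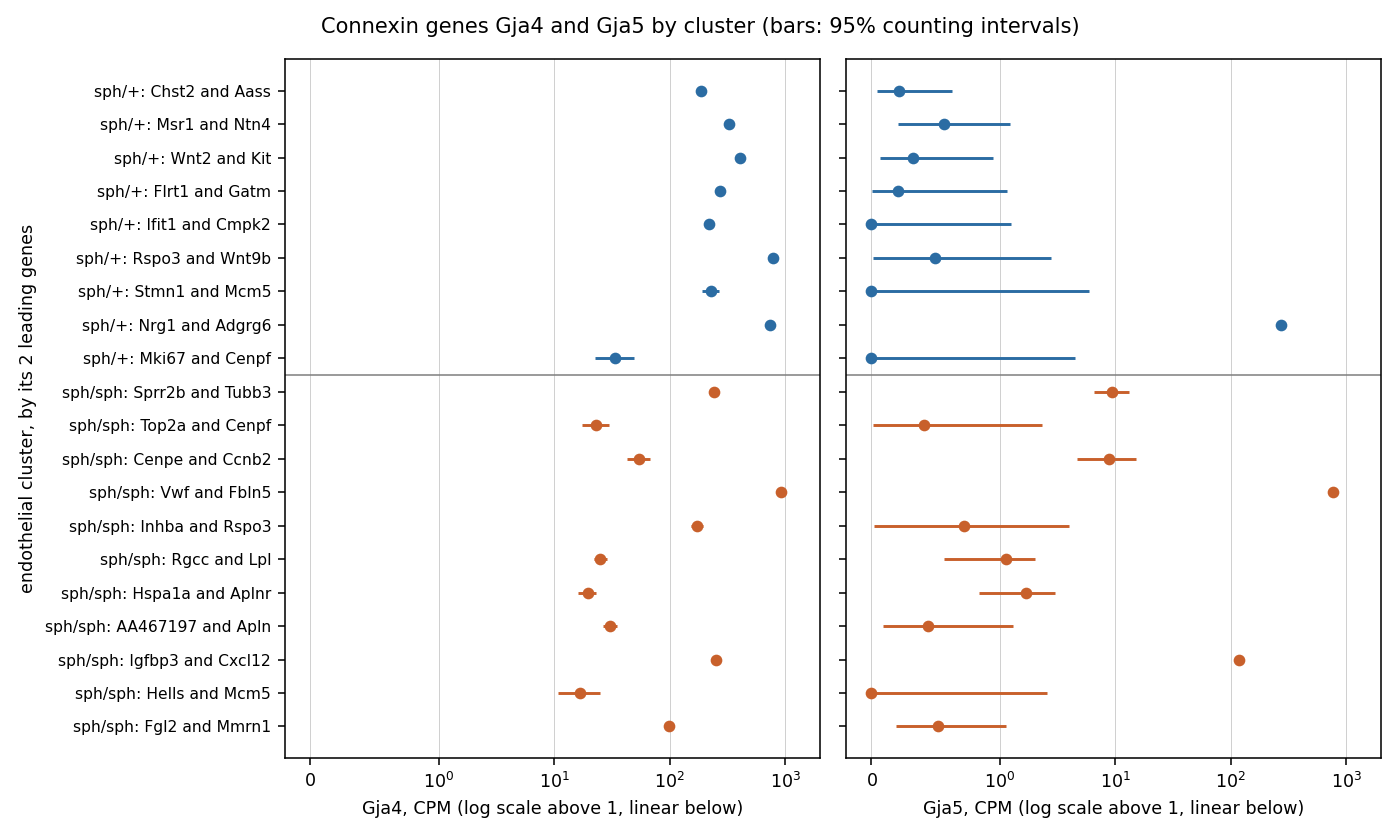
Gja4 (left) and Gja5 (right) in each endothelial cluster with at least 50 cells of a library (rows, sph/+ above the line), in CPM (x axis, logarithmic above 1 and linear below) with 95% exact Poisson intervals. Gja4 runs from 33.76 CPM in the cycling cluster to 781.9 CPM in Rspo3 and Wnt9b in sph/+, and Gja5 stands out in Nrg1 and Adgrg6 (273.8 CPM), Vwf and Fbln5 (767.8 CPM) and Igfbp3 and Cxcl12 (116.6 CPM).

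The main capillary-like classes of the libraries were set side by side, LSEC-like sph/+ cells against continuous vascular-like sph/sph cells. Of the 9 measured members, 3 were at least 1.5-fold higher in the continuous vascular-like cells, against 18.3% of 7365 genes, and 2 at least 1.5-fold lower, against 24.0%. Cdh5 was 1.825-fold higher (1.801 to 1.850), at 1612 against 883.5 CPM. Jam3 was 8.872-fold higher (7.932 to 9.946), at 72.50 against 8.173 CPM. Gja5 was also higher, at 20.49 against 0.3169 CPM, and its level just passed the floor of 20 CPM, with 579 of its 604 UMIs in the Igfbp3 and Cxcl12 cluster. Jam2 was 6.312-fold lower and Gja4 4.858-fold lower. Cldn5 differed little, with a ratio of 1.177 (1.161 to 1.192), as did Esam at 1.286 and F11r at 1.382. Tjp1 had a ratio of 0.6772 (0.6544 to 0.7008), which falls short of 1.5-fold lower. These classes have different cells, libraries and mice, and the parts of each cannot be told apart.

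Within the sph/sph library the large-vessel-like and continuous vascular-like cells could be compared without a change of mouse. Of the 9 measured members, 3 were at least 1.5-fold higher in large-vessel-like cells (16.4% of 7263 genes) and 4 at least 1.5-fold lower (13.6%). Gja5 was higher by 18.13-fold to 22.08-fold (interval of the ratio), Jam2 14.9-fold (14.02 to 15.84) and Gja4 9.007-fold (8.427 to 9.626). These folds do not hold for the whole class, since 1222 of its 1223 Gja5 UMIs were in Vwf and Fbln5. The 227 cells of Inhba and Rspo3 had 0.7181 CPM of Gja5, below the 20.49 CPM of continuous vascular-like cells, and 172.3 CPM of Gja4. Cldn5 was 19.93-fold lower, Jam3 3.730-fold, Cdh5 2.045-fold and Esam 1.797-fold. F11r and Tjp1 differed by less than 1.5-fold. The classes thus differed in both directions among the members.

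The cluster led by Inhba and Rspo3 was the only endothelial cluster to which both libraries gave at least 25 cells, with 40 sph/+ and 227 sph/sph cells. All 6 central vein markers were detected in it, among them Rspo3 and Wnt9b. Here 8 members were measured, of which 2 stood at least 1.5-fold higher in sph/sph (25.2% of 7683 genes) and 2 at least 1.5-fold lower (27.5%), so the members stood near the background. Cdh5 was higher, at 436.9 CPM (357.7 to 528.4) in sph/+ against 771.3 CPM (725.8 to 818.8) in sph/sph. Jam3 was counted as higher from 2 and 42 UMIs, a ratio of 3.659 whose interval of 0.9519 to 31.21 includes 1. Esam was lower, at 667.6 and 419.4 CPM (ratio 0.6282, 0.5269 to 0.7523), and F11r was lower, at 436.9 and 270.7 CPM (ratio 0.6197, 0.4983 to 0.7762). Jam2, which was 3.392-fold lower over all cells, was 770.7 CPM (664.2 to 889.4) in sph/+ against 884.0 CPM (835.3 to 934.8) in sph/sph here. Tjp1 had a ratio of 0.9538 (0.7172 to 1.288). Gja4 was lower, at 172.3 against 247.3 CPM (ratio 0.697, 0.5233 to 0.9411), by less than 1.5-fold. In these central vein-marked cells the lower Jam2 and Tjp1 of the whole library were not seen, while Cdh5 and Gja4 kept their direction.

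**Figure D4:**
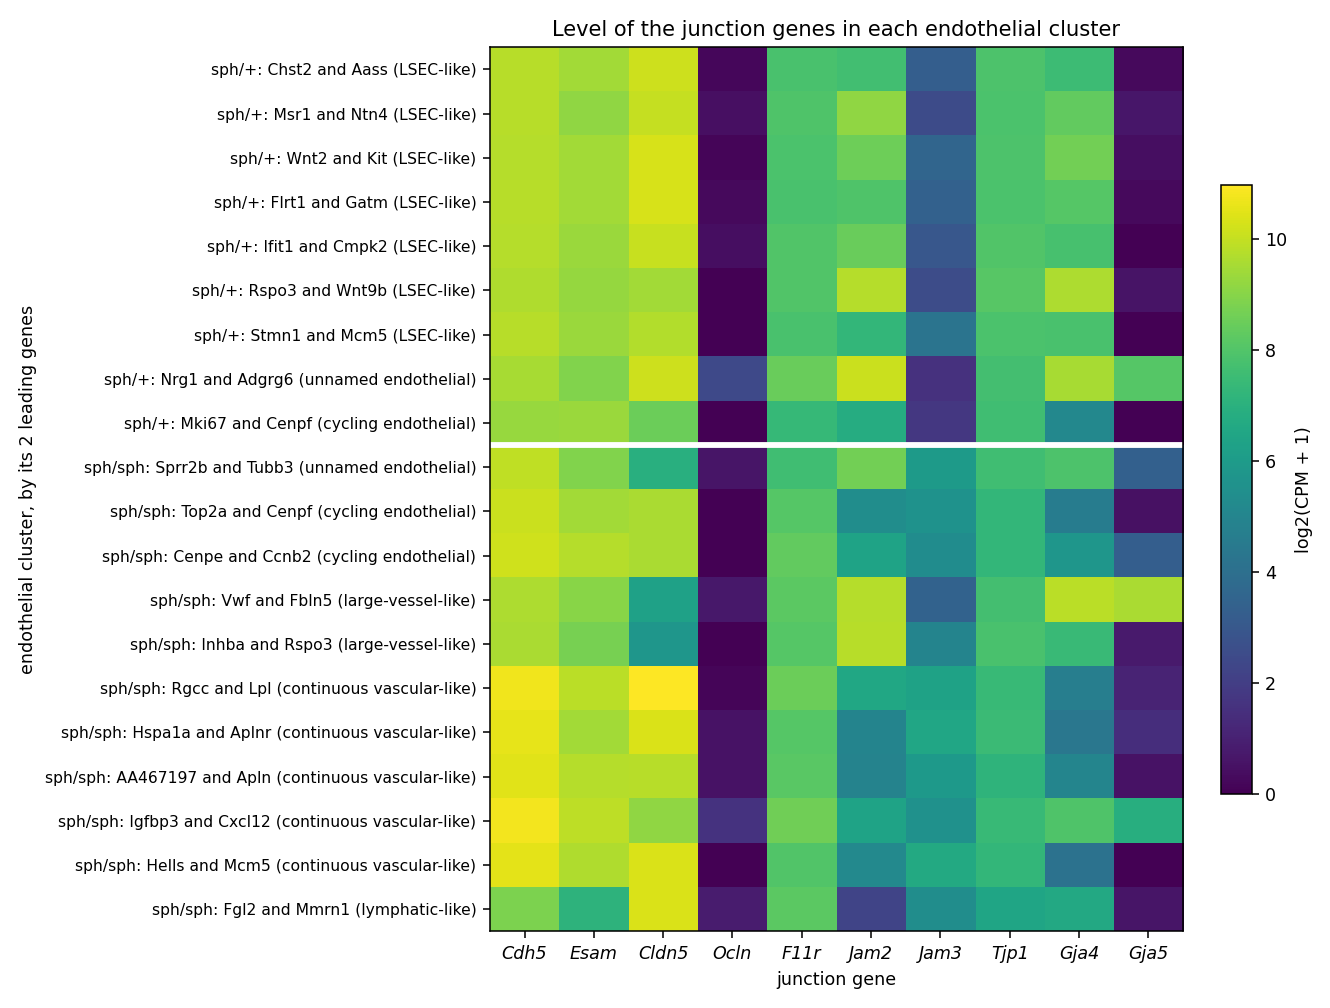
Level of each junction gene (columns) in each endothelial cluster with at least 50 cells of a library (rows, by library and 2 leading genes with the class in brackets), as log2(CPM + 1), with sph/+ above the white line. Colours compare a gene between clusters and not genes with each other, and show low Cldn5 beside high Jam2 in the Inhba and Rspo3 and the Vwf and Fbln5 clusters of sph/sph.

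At 2000 UMIs per cell, which left out 390 sph/+ and 905 sph/sph cells, the median cell carried UMIs of 4 junction genes in sph/+ and 3 in sph/sph. At least 4 of the 10 genes were found in 66.5% of sph/+ and 42.4% of sph/sph cells, and none in 0.112% and 0.772%. The remaining shares followed the levels. Esam was found in 72.0% of sph/+ and 68.5% of sph/sph cells, Tjp1 in 37.4% and 27.5%, Gja5 in 1.41% and 2.97%, and Ocln in 0.0612% and 0.122%. Unthinned, these shares were 90.9% and 83.7% for Esam, 61.8% and 47.1% for Tjp1, 2.27% and 4.04% for Gja5, and 0.176% and 0.261% for Ocln.

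The genes whose levels followed a member most closely across the 11 sph/sph clusters were named by rank of Pearson r of log2(CPM + 20), as a description. For Gja5 they were Ace (0.96), Fbln5 (0.95) and Dgcr2 (0.94), and for Gja4 Bcl9l (0.95), Tbxa2r (0.94) and Ssfa2 (0.94). For Cldn5 they were Meox1 (0.95), Lyn (0.94) and Elmo1 (0.94), and for Jam2 Camk1, S100a1 and Slc26a10 (0.97 each). Cdh5 was followed by Prkacb, Cd36 and Sptbn1 (0.98 each), and Esam by Sparc and Tnfaip1 (0.98 each) and Palmd (0.97). The members also paired with each other, with Gja4 and Gja5 at 0.81. Cdh5 and Gja5 were unrelated at -0.07.

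Beyond the 10 members, other junction genes were counted by list, as a description of the same library comparison, in which 18.3% of all measured genes were at least 1.5-fold higher and 21.4% lower. Among partners of adherens junctions 10 of 13 genes were measured, of which 3 were at least 1.5-fold higher and 2 lower, with a median log2 ratio of 0.37. Ptprb, the phosphatase VE-PTP that binds VE-cadherin, stood at 4826 CPM in sph/+ and was 8.837-fold lower in sph/sph, at 546.1 CPM. Plakoglobin (Jup) stood at 57.76 and 186.2 CPM in the same order, afadin (Afdn) at 72.49 and 205.5 CPM and T-cadherin (Cdh13) at 158.6 and 297.6 CPM. Ctnnb1, the beta-catenin that binds VE-cadherin, stood at 368.0 and 464.1 CPM. Over all endothelial-like cells Cdh5 and Ctnnb1 were thus within 1.5-fold of equal, while VE-PTP was not. For Cdh5 this did not hold without lymphatic-like cells or with cells weighted equally, as given above.

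Among further membrane proteins of tight junctions only 1 of 17 was measured, Marveld1, at 83.11 CPM in sph/+ against 38.38 CPM in sph/sph. Cldn5 was therefore the only 1 of the 11 claudin genes examined that reached 20 CPM, and Cldn15 came closest, at 4.476 and 19.99 CPM. Among plaque and polarity genes 10 of 15 were measured, with 3 higher, 3 lower and a median of -0.22. The polarity gene Pard6g stood at 5.615 and 52.53 CPM and paracingulin (Cgnl1), a scaffold that binds ZO-1, at 18.64 and 97.80 CPM. Both passed 20 CPM only in sph/sph, where they are high. The angiomotin-like genes Amotl1 (460.9 and 172.5 CPM) and Amotl2 (171.4 and 93.94 CPM) were lower in sph/sph, as Tjp1 was.

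Of other connexins and pannexins 2 of 6 were measured. Gjc1 (connexin 45) stood at 4.771 CPM in sph/+ against 20.72 CPM in sph/sph, and Gja1 (connexin 43) at 168.1 and 224.8 CPM, within 1.5-fold. Gjc1 passed 20 CPM only in sph/sph, where it is high. Gja4 was thus the only measured connexin that was lower in sph/sph.

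Adhesion genes of leukocyte passage had 7 of 8 listed genes measured, 4 higher and 2 lower, with a median of 0.96. Icam1 stood at 52.00 and 169.7 CPM and Icam2 at 305.3 and 816.7 CPM, whereas Cd47 (1127 and 471.1 CPM) and Cd99l2 (62.02 and 26.21 CPM) were lower. This list includes Pecam1, on which the cells were sorted. Among genes that control junctions through Rap1, the CCM complex or sphingosine phosphate, 15 of 16 were measured, 2 higher and 2 lower, with a median of 0.11. Angpt2, the ligand that can oppose Tie2 signalling, stood at 23.12 and 204.4 CPM and its receptor Tek at 468.1 and 101.9 CPM. S1pr1, which supports endothelial barriers, stood at 207.2 and 466.0 CPM and Robo4 at 383.4 and 211.6 CPM. The other 11 measured genes of this list, among them Rasip1, Krit1 and Rap1b, were within 1.5-fold.

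**Figure D5:**
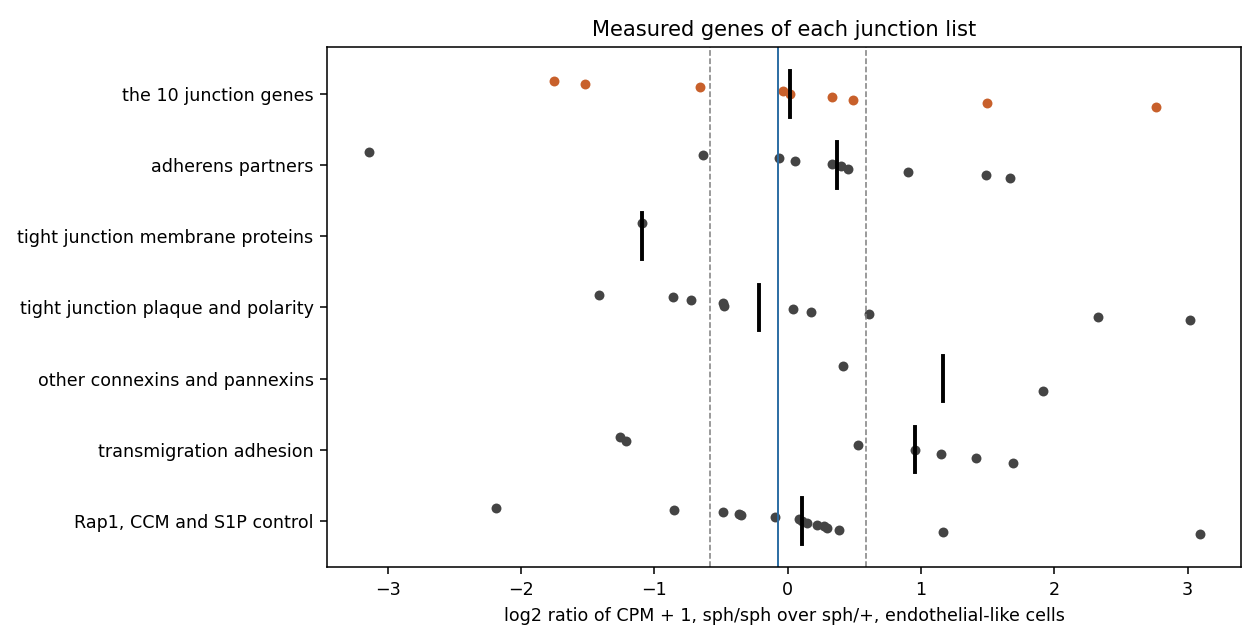
Log2 ratio (x axis, sph/sph over sph/+ after adding 1 CPM) of each measured gene (points) in the junction lists (rows), with the list median as a black bar, dashed lines at 1.5-fold and the median of all measured genes as a blue line at -0.07. The 9 measured members (top, orange) run from -1.75 for Jam2 to 2.76 for Jam3, around a median of 0.02.

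Counts of 3 members may share reads with genes annotated on the opposite strand, Cdh5 with Gm29682, Jam3 with Gm48796, and Gja5 with genes that include Gpr89. Whether strand was used in counting is not given in the sources used here.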

How the data were processed

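Liver endothelial cells of 1 sph/+ and 1 sph/sph mouse were measured, each in 1 library (1 mouse per group). The deposited values are UMI counts per gene and barcode in filtered matrices. The submitters' processing notes name Cell Ranger 3.0 and mm10, and the matrix headers, per the file headers, give software version 3.1.0. The annotation release is not given in the sources used here.

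Cells with at least 500 genes, at least 1000 UMIs and at most 15% mitochondrial UMIs were kept, 12304 sph/+ and 13094 sph/sph. Scrublet's automatic threshold marked 0.00813% and 0.00764% of cells and so had not worked. The highest scores were therefore removed at an expected 0.8% per 1000 barcodes (10.8% and 13.5%). Counts were normalised to 10000 per cell, and 2000 variable genes without junction genes, 30 principal components and 15 neighbours gave 28 Leiden clusters (resolution 1.0) with scanpy 1.11.5, leidenalg 0.10.2, igraph 0.11.9, scikit-learn 1.9.0, numpy 2.4.6, scipy 1.17.1, pandas 2.3.3 and Python 3.11.15. Clusters were named from marker lists, a marker counting as detected in 25% of a cluster's cells. Endothelial-like clusters (20) needed 3 of 13 pan-endothelial markers, LSEC-like ones 9 of 12 with a summed level above that of the continuous vascular markers, continuous vascular-like ones 9 of 15 with a higher level and a larger share detected than for LSEC markers, lymphatic-like ones 4 of 7 and large-vessel-like ones 6 of 8 venous markers, and cycling ones 3 of 10 among their leading genes. The other 8 clusters led with markers of other cell types or lacked endothelial ones. These cut-offs were set after the data were seen.

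UMIs were summed over cells and scaled to CPM. Ratios are log2 after adding 1 CPM, a gene is measured at 20 CPM in either group, and called at 1.5-fold. Ratios without a log are of CPM. The code was tested on simulated data with known folds. All 10 members were to be described in both libraries and in every endothelial cluster with at least 50 cells of a library. In each other junction list up to 4 measured genes with the largest log2 ratio were to be named, and for likeness the 3 genes with the highest r over clusters with at least 100 cells. Other genes named were chosen after their values were seen, as were the 3 sph/sph clusters with low Cldn5. Members, lists and tests were chosen with earlier results of these data known. Alternatives varied the doublet step, filters, scaling, weights, depth, pseudocount, floor, cell classes and clustering, and 1 was added after the data were seen. Gene positions are those of the GRCm38 annotation and promoters those of RefSeq.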

Additional observations from a re-analysis of the deposited data

Results flagged for a closer look

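Ocln, which was close to undetected in endothelial-like cells, was found in cells outside the endothelial-like clusters. The 175 sph/+ cells of the cluster with bile duct markers (Krt19, Krt7, Epcam, Sox9, Spp1 and Cldn7) had an Ocln level of 49.19 CPM. That level came from 106 UMIs (40.27 to 59.49 CPM). The same cells also had 12 of 13 pan-endothelial markers detected, and 51.43% had a Cdh5 UMI, at a median of 10792 UMIs per cell. Whether single barcodes held RNA of both cell types was not tested.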

How the results depend on the processing

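The number of members at least 1.5-fold lower in sph/sph was 2 or 3 under all 20 alternatives. The number at least 1.5-fold higher was 2 in the main analysis and 1 to 3 under the alternatives. It was 1 with a floor of 50 CPM, where Gja5 was not measured, and 1 without large-vessel-like and unnamed cells (added after the data were seen). The median log2 ratio of the measured members was 0.0162. It was -0.0074 without doublet removal, 0.0851 with at most 10% mitochondrial UMIs, 0.0925 with scaling by the median ratio, 0.0584 with total UMIs that leave out mitochondrial and ribosomal protein genes, -0.0107 with a floor of 50 CPM and 0.0978 with no floor. It was 0.1013 with cells weighted equally, 0.1104 thinned to 2000 UMIs, 0.255 without lymphatic-like cells, 0.0351 without cycling cells, 0.2586 without both, 0.0614 over all kept cells and 0.0952 without large-vessel-like and unnamed cells. The cause of these shifts was not tested. Cdh5 also passed 1.5-fold when thinned (0.67) and without lymphatic-like and cycling cells (0.76), and Tjp1 fell short of it there (-0.53 and -0.48). Jam2, Jam3, Gja4, Gja5, F11r, Cdh5 and Tjp1 kept their direction under all 20 alternatives. Esam kept its sign under 13 of 20 and Cldn5 under 17, and neither passed 1.5-fold. The median over all genes was 0.013 with scaling by the median ratio and -0.02 with the mitochondrial and ribosomal genes left out, against -0.07.

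Clustered alone, the libraries gave 51 clusters, and continuous vascular-like sph/sph cells had 121.4 CPM of Jam2 and 55.64 CPM of Gja5. Large-vessel-like sph/sph cells had 802.8 CPM of Esam and 37.97 CPM of Cldn5. At resolution 0.5 (22 clusters) they had 914.9 CPM of Gja4 and 772.5 CPM of Gja5. No paired analysis was possible because each genotype had 1 library. No library could be left out for the same reason. Depth limits Ocln, with 18 and 29 UMIs, and the Jam3 level in sph/+, with 374. Free RNA was not measured, and the 118 hepatocyte-like sph/sph cells set beside the members are few. The large-vessel-like class depends on the clustering.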
